A study of Mus musculus with 5 samples.

Results

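The mouse Toll-like receptors were examined in 5 RNA-seq libraries of cultured ICR mouse brain cells. The members were the 10 genes Tlr1, Tlr2, Tlr3, Tlr4, Tlr5, Tlr6, Tlr7, Tlr8, Tlr9 and Tlr13, chosen by name from the 20178 transcripts counted, and all 10 were present with 1 row each. They were split by where the protein is known to act into 5 surface receptors (Tlr1, Tlr2, Tlr4, Tlr5 and Tlr6) and 5 endosomal receptors (Tlr3, Tlr7, Tlr8, Tlr9 and Tlr13).

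The VM library came from ventral midbrain astrocyte progenitors and the Ctx library from cortical ones, both prepared at postnatal day 5 and taken at passage 2. The Ctx NPC library came from cortical neural progenitors of embryonic day 12, also at passage 2. Libraries titled VM C and VM NF came from VM cultures given lentiviral vectors with a CMV promoter, carrying either mouse Nurr1 and rat Foxa2 or an empty backbone as the mock control. The treatment entries of these 2 libraries contradict their titles, since VM C is entered as receiving the factors and VM NF as receiving the mock virus. Groups follow the titles here, and with the entries every VM NF against VM C ratio would change sign. Foxa2 had 68 reads in VM, 15 in VM C, 216 in VM NF, 1 in Ctx and 0 in Ctx NPC. Nr4a2, the gene of Nurr1, was counted 81, 53, 183, 106 and 93 times in these libraries. Both genes were thus highest in the library titled VM NF, which goes with the titles. Of all genes tested against VM, 15.8% passed 2-fold in either direction in VM C, the mock library by its title, and 0.990% in VM NF. Neither observation settles the conflict, and an exchange of labels was not tested. Reads of rat Foxa2 were counted only where they aligned to the mouse gene.

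Each condition had 1 library, so no difference has a replicate check and no test between conditions was possible. Library totals ran from 20010818 reads (Ctx NPC) to 22554835 reads (VM C). Intervals are exact 95% intervals of the counts and cover counting error only, because PCR reads without molecular identifiers are not independent molecules. All 10 listed astrocyte markers had an FPKM (reads scaled to transcript length and library total) above 1 in all 5 libraries. Their reads summed to 45366 in VM, 43243 in VM C, 37355 in VM NF, 99097 in Ctx and 227466 in Ctx NPC. Listed fibroblast or mural markers summed to 97444, 65996, 89078, 43624 and 11909 reads in that order, so the cultures were not of astrocyte lineage alone. The Ctx NPC library, labelled as neural progenitors, also held 75411 reads of the oligodendrocyte marker Mbp.

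Toll-like receptors are membrane proteins of innate immunity that bind molecules shared by many microbes. Surface receptors bind lipids and proteins of the microbial envelope, whereas endosomal receptors bind nucleic acids after uptake, and nearly all of them signal through the adaptor MYD88 to NF-kB and interferon regulatory factors. In brain, microglia are known to carry most members of the family, and astrocytes are known to carry some of them, TLR3 in particular.

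Among the surface receptors, Tlr2 encodes a receptor for bacterial lipoproteins that works in pairs with the products of Tlr1 and Tlr6. Tlr4 encodes the receptor for lipopolysaccharide and Tlr5 the receptor for flagellin. Among the endosomal receptors, Tlr3 encodes a receptor for double-stranded RNA, Tlr7 and Tlr8 encode receptors of the single-stranded RNA group, Tlr9 encodes a receptor for unmethylated CpG DNA and Tlr13 a receptor for bacterial ribosomal RNA. By the RefSeq annotation of GRCm38.p6, Tlr1 (chr5:64924680-64933600) and Tlr6 (chr5:64953092-64970942) lay 19491 bases apart, and Tlr8 (chrX:167241123-167264329) and Tlr7 (chrX:167303380-167330574) lay 39050 bases apart. Tlr13 lay elsewhere on the same chromosome (chrX:106143275-106160493). The remaining members were single genes, namely Tlr2 (chr3:83836272-83841824), Tlr3 (chr8:45395665-45411075), Tlr4 (chr4:66827551-66846581), Tlr5 (chr1:182954752-182976044) and Tlr9 (chr9:106222598-106226876).

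Promoter sequence is shown for Tlr13, Tlr8 and Tlr9, which with Tlr7 were the endosomal receptors whose levels differed most between VM C and VM, as the 250 bases before the start site in RefSeq (GRCm38.p6), with capitals on matches to GAGGAA, the core motif of the myeloid factor PU.1, which is the product of Spi1. Windows for Tlr4 and Tlr7 were not in the table used.
Tlr13, chrX:106143025-106143274, plus strand: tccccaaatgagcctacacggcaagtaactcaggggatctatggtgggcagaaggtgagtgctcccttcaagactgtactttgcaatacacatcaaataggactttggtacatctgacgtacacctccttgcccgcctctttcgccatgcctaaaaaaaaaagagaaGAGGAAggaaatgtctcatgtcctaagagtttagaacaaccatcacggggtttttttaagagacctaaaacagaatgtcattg
Tlr8, chrX:167264330-167264579, minus strand: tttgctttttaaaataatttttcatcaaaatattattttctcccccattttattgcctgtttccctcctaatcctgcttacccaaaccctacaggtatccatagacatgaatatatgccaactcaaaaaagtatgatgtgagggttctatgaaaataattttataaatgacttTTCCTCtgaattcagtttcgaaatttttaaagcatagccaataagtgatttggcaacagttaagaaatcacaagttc
Tlr9, chr9:106222348-106222597, plus strand: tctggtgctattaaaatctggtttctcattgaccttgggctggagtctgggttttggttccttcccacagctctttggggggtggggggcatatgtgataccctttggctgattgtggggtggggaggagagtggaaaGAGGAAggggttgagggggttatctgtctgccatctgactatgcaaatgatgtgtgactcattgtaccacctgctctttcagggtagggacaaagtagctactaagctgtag
The core was read on both strands and started 83 bases before the start site in Tlr13 and 112 bases before it in Tlr9, and in Tlr8 it lay on the opposite strand, where the capitals show its complement. It occurred in 4 of the 10 windows of the 8 members in the table, the fourth being a window of the surface receptor Tlr1, against 23.3% of all 32851 promoter windows of this length. The core of the interferon-stimulated response element, read as 2 copies of GAAA with 2 bases of any kind between them on either strand, occurred in a window of Tlr6 alone as 2 overlapping matches, against 2.98% of all windows. The NF-kB consensus occurred in the windows of Tlr2, as 3 overlapping matches on both strands, and of Tlr3, against 7.25% of all windows. These are matches of letters and not mapped binding sites.

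Levels between receptors were compared per transcript length, as FPKM. Tlr2 had the highest FPKM of the 10 members in every library. It reached 17.1 in VM, 62.5 in VM C, 11.9 in VM NF, 16.8 in Ctx and 4.86 in Ctx NPC. Tlr3 was second in VM, VM NF and Ctx, with an FPKM of 7.33, 13.8, 5.41, 11.1 and 2.13 across the libraries in the same order. Tlr13 was second in VM C and Tlr1 was second in Ctx NPC, so the second place was not held by the same receptor throughout.

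Tlr13 had an FPKM of 4.50 in VM, 45.7 in VM C, 3.43 in VM NF, 1.13 in Ctx and 0.0249 in Ctx NPC, the last from 2 reads. Tlr7 had an FPKM of 1.77, 20, 1.32, 0.565 and 0.0395 in that order. Tlr8 had an FPKM of 0.734, 6.16, 0.983 and 0.342 and was at 0 reads in Ctx NPC. VM C stood highest and Ctx NPC lowest for all 3 of these receptors. Tlr9 was the scarcest member in VM, VM NF and Ctx, with 8, 76, 7, 6 and 1 reads across the 5 libraries.

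Of the other surface receptors, Tlr1 had an FPKM of 2.73, 5.83, 2.08, 3.44 and 3.07 in VM, VM C, VM NF, Ctx and Ctx NPC. Tlr6 had an FPKM of 2.80, 4.74, 2.40, 3.21 and 1.42, and Tlr4 had 1.30, 5.58, 1.22, 1.42 and 0.0950. Tlr5 was the only member whose FPKM was lower in VM C (0.651) than in VM (0.953), with 1.24 in VM NF, 0.947 in Ctx and 0.265 in Ctx NPC. Reads of Tlr1 and Tlr6 are uncertain, because 15.3% of the 50-base windows of the Tlr1 transcript also occur in Tlr6 and the counting could split such reads; no other pair of members shared a window of that length.

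The number of members with an FPKM above 1 was 7 in VM, 8 in VM C, 8 in VM NF, 6 in Ctx and 4 in Ctx NPC. Not all neighbours in the order of levels were separated beyond counting error, since intervals overlapped for 3 of the 9 neighbouring pairs in VM, 4 in VM C, 4 in VM NF, 5 in Ctx and 5 in Ctx NPC. Tlr6 and Tlr1 overlapped in VM, VM NF and Ctx. The files give Tlr4 a length of 7894 bases, against 4077 for the matched GENCODE M21 transcript, and with the latter length Tlr4 would have an FPKM of 2.52 in VM and 10.8 in VM C, while Tlr2 would stay first in all 5 libraries. The other mouse receptors, Tlr11 and Tlr12, had 0 reads throughout apart from 1 read of Tlr12 in Ctx NPC, with 3 reads per library taken as the limit that a count of 0 allows.

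**Figure D1:**
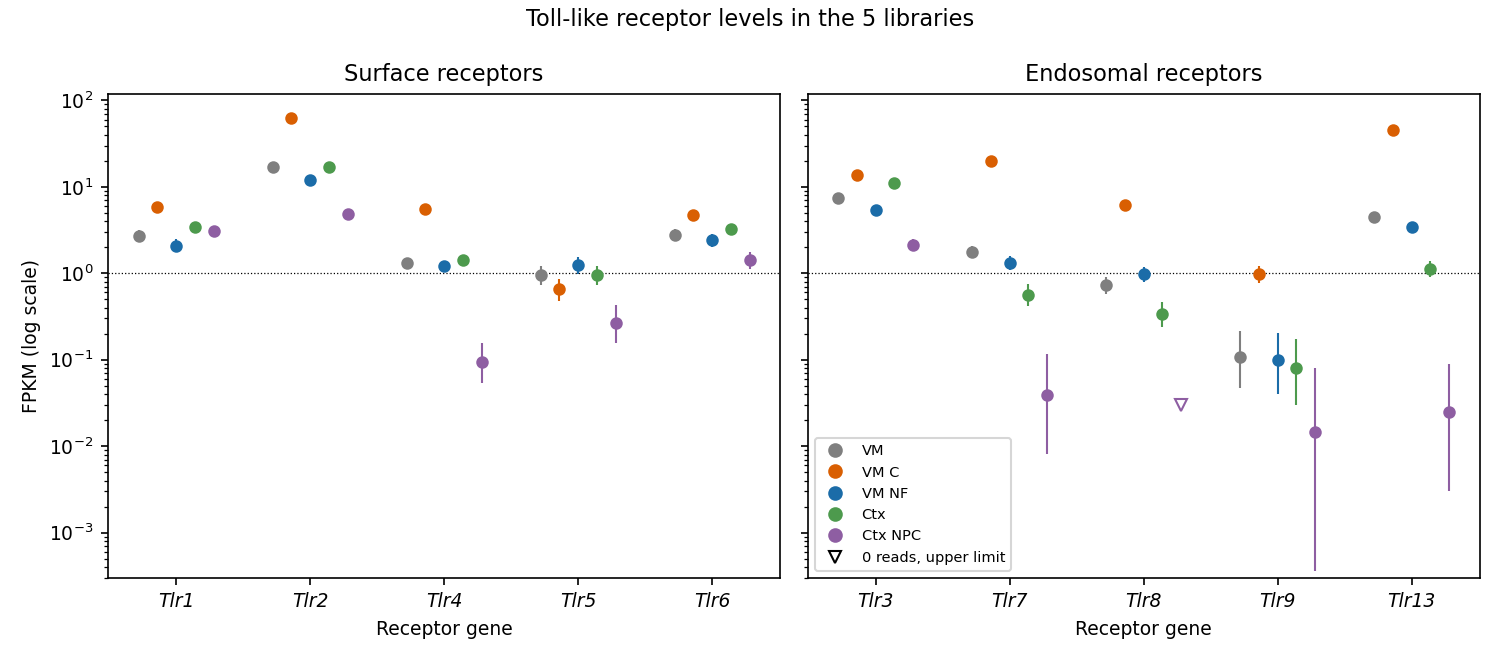
FPKM of each receptor on a log axis in the 5 libraries, with surface receptors on the left and endosomal receptors on the right; points are single libraries, bars are exact 95% counting intervals, the dotted line is an FPKM of 1, and the open triangle is the level of 3 reads for Tlr8 in Ctx NPC, where it had 0 reads. VM C is the highest library for every receptor but Tlr5, and Ctx NPC is the lowest for every receptor but Tlr1.

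The VM C library, the mock culture by its title, was compared with the VM library. VM NF was also given a lentiviral vector, and an effect of transduction as such was not tested. By the treatment entries, VM C would be the culture given the factors. Of the 8 members with an FPKM above 1 in either library, 6 were at least 2-fold higher in VM C and 0 were lower, against 7.30% higher and 8.48% lower of all 12703 genes tested. The 6 were the surface receptors Tlr1, Tlr2 and Tlr4 and the endosomal receptors Tlr7, Tlr8 and Tlr13. The median log2 ratio of the 8 was 1.99, against -0.01 for all genes tested.

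Tlr7 had the largest difference, with 143 reads in VM and 1714 in VM C, an 11.3-fold higher scaled level (log2 ratio 3.50, interval 3.25 to 3.76). Tlr13 went from 385 to 4138 reads (log2 ratio 3.34, 3.19 to 3.50) and Tlr8 from 79 to 702 reads (log2 ratio 3.06, 2.73 to 3.42). Tlr9 had a ratio of the same size (log2 ratio 3.09, 2.11 to 4.43), but its FPKM of 0.970 in VM C left it out of the count. The 4 nucleic acid receptors other than Tlr3 therefore had log2 ratios of 3.06 to 3.50, above those of every surface receptor. For Tlr9, with 8 reads in VM, the interval overlapped that of the surface receptor Tlr4 (1.89 to 2.32). Tlr3 itself was 1.88-fold higher (677 against 1351 reads, log2 ratio 0.91, 0.78 to 1.05), below the 2-fold line.

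Among the surface receptors, Tlr4 was 4.28-fold higher in VM C, with 219 and 993 reads (log2 ratio 2.10, 1.89 to 2.32). Tlr2 was 3.65-fold higher, with 1042 and 4032 reads (log2 ratio 1.87, 1.77 to 1.97). Tlr1 had a log2 ratio of 1.09 (0.84 to 1.36) and Tlr6 a log2 ratio of 0.76 (0.47 to 1.05), the latter under the 2-fold line. Tlr5 had 65 reads in VM and 47 in VM C, a log2 ratio of -0.55 whose interval (-1.12 to 0.01) reached 0.

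Between VM NF and VM, 0 of the 8 tested members passed 2-fold in either direction, where 0.668% of all genes tested were lower and 0.322% higher, or 0.990% together. Log2 ratios of the 10 members ran from -0.53 (Tlr2, 690 against 1042 reads) to 0.42 (Tlr8, 101 against 79 reads). The counting interval lay below 0 for Tlr1, Tlr2, Tlr3, Tlr7 and Tlr13, so these differences were larger than counting error alone, while no replicate shows how far 2 cultures of one condition vary.

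VM NF against VM C addressed the effect of Nurr1 and Foxa2 as the titles have it. Here 7 of 9 tested members were at least 2-fold lower in VM NF and 0 were higher, against 9.73% lower and 9.53% higher of 12701 genes. Tlr7 was 15.1-fold lower, with 102 against 1714 reads (log2 ratio -3.92, -4.22 to -3.63), and Tlr13 was 13.3-fold lower, with 280 against 4138 reads (log2 ratio -3.73, -3.92 to -3.56). Tlr8 had a log2 ratio of -2.64, Tlr2 of -2.40, Tlr4 of -2.19, Tlr1 of -1.48 and Tlr3 of -1.35. Tlr6 fell just short of the line at 1.97-fold lower, and Tlr5 pointed the other way (log2 ratio 0.93, 0.40 to 1.48, 81 against 47 reads). These 3 comparisons share their libraries in pairs, and so their ratios are not independent of each other. By the treatment entries, the same values would read as higher in the library given the factors.

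**Figure D2:**
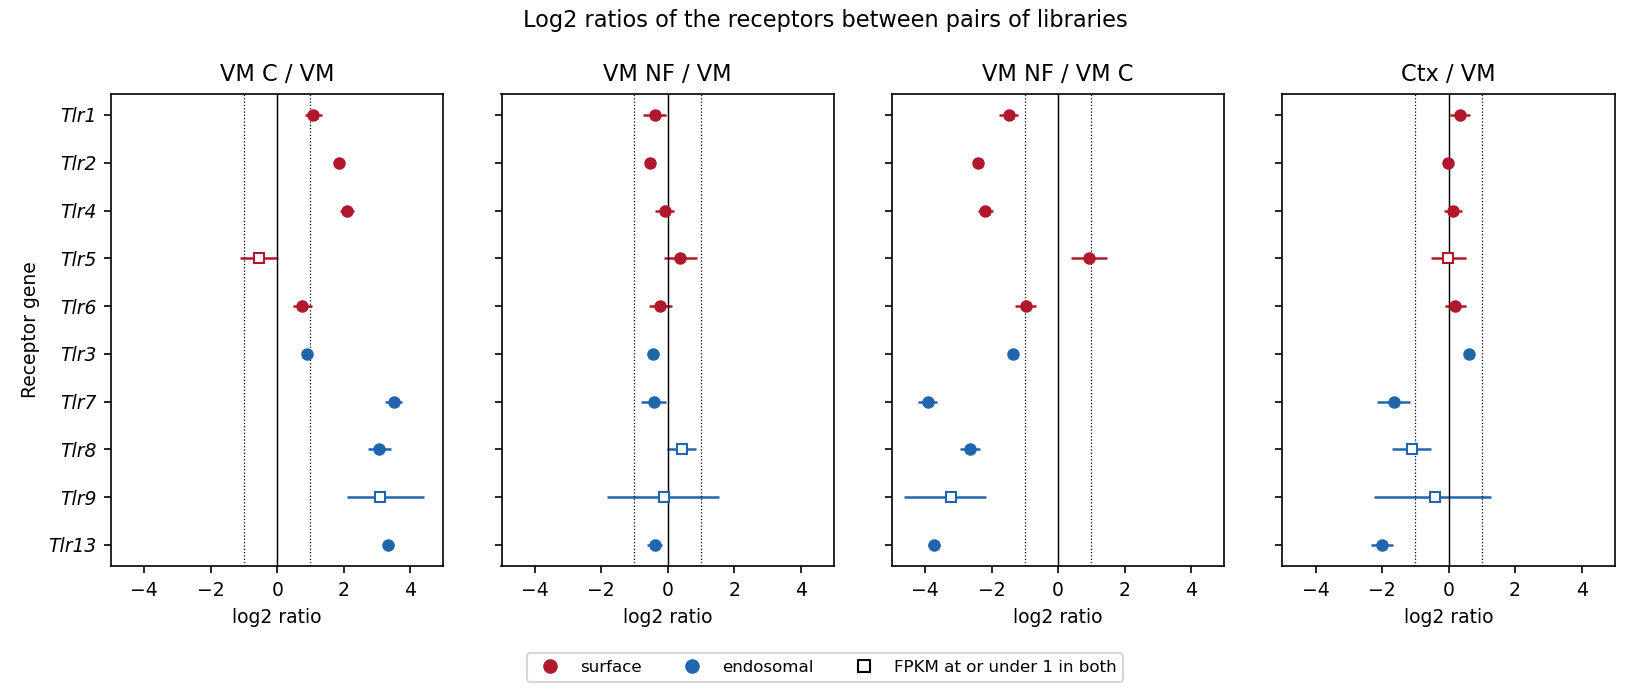
Log2 ratios of the 10 receptors between pairs of libraries, with exact 95% counting intervals as bars, dotted lines at 2-fold, and open squares for receptors whose FPKM was at or under 1 in both libraries. Tlr7, Tlr8, Tlr9 and Tlr13 lie at 3.06 to 3.50 in VM C against VM, whereas all 10 receptors lie between -0.53 and 0.42 in VM NF against VM.

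Summed over a class, surface receptors had 1657 reads in VM, 5748 in VM C, 1222 in VM NF, 1737 in Ctx and 570 in Ctx NPC. For endosomal receptors the sums were 1292, 7981, 967, 1221 and 191 reads, listed likewise. The VM C against VM log2 ratio was 1.71 (1.63 to 1.79) for the surface sum and 2.54 (2.46 to 2.63) for the endosomal sum, a difference of -0.83 (-0.95 to -0.72). The gap between the classes was thus beyond counting error, but much of it rested on single receptors. Without Tlr13 the endosomal ratio was 2.00, without Tlr3 it was 3.35, and without Tlr2 the surface ratio was 1.40. In VM NF against VM the classes had ratios of -0.37 and -0.35, with a difference of -0.02 (-0.18 to 0.14).

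Surface receptors therefore made up 56.2% of the reads of the 10 receptors in VM (54.4 to 58.0), 41.9% in VM C (41.0 to 42.7) and 55.8% in VM NF (53.7 to 57.9). The share was 58.7% in Ctx (56.9 to 60.5) and 74.9% in Ctx NPC (71.7 to 77.9). VM C was the only library in which endosomal receptors held most of the reads, a statement that rests on Tlr2, since without it the surface share was 32.2% in VM, 17.7% in VM C, 35.5% in VM NF, 36.7% in Ctx and 60.5% in Ctx NPC. With all 10 receptors counted, the intervals of VM, VM NF and Ctx overlapped. As a share of summed FPKM the surface class took 63.3%, 47.8%, 62.6%, 66.1% and 81.5%, which kept VM C lowest and Ctx NPC highest.

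**Figure D3:**
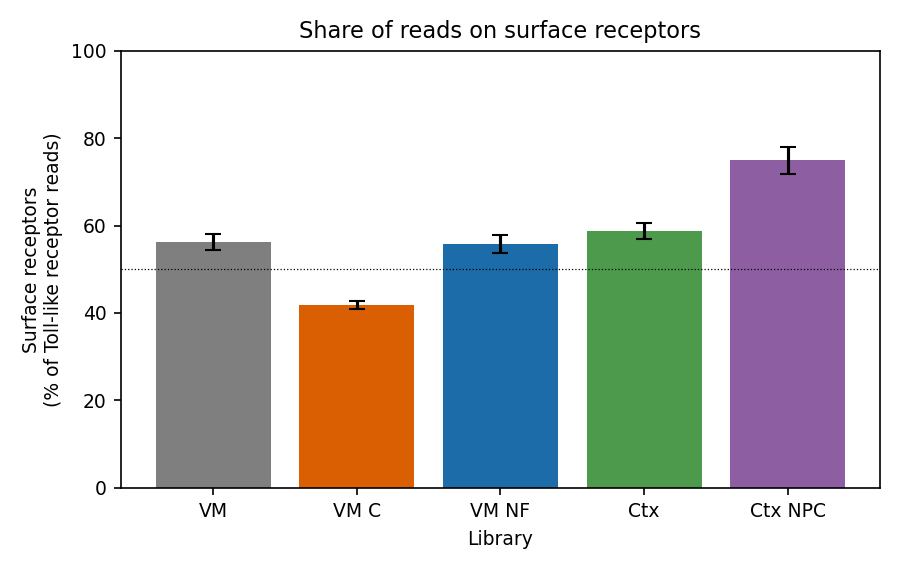
Percentage of the reads of the 10 receptors that lay on the 5 surface receptors, as bars for each library with exact 95% binomial intervals and a dotted line at 50%. VM C (41.9%) lies below the line and the other 4 libraries lie above it, with Ctx NPC highest at 74.9%.

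Ctx was compared with VM to ask how astrocyte progenitor cultures of the 2 regions differ. Their cell type markers differed as well, so region cannot be told apart from cell makeup. In Ctx, 6 of 10 astrocyte markers were higher and 0 lower, against 4.49% and 9.89% of all genes. Of the fibroblast or mural markers, 4 of 8 were lower in Ctx and 0 higher. Tlr7 (46 against 143 reads, log2 ratio -1.63, -2.16 to -1.16) and Tlr13 (97 against 385 reads, log2 ratio -1.99, -2.33 to -1.67) were lower in Ctx, making 2 of 7 tested members, against 9.89% of all genes lower. 0 members were higher, against 4.49% of all genes. Tlr8 had a log2 ratio of -1.09 with an FPKM under 1 in both libraries. Tlr3 was 1.52-fold higher in Ctx (1035 against 677 reads, log2 ratio 0.60, 0.46 to 0.75), and the 5 surface receptors had log2 ratios between -0.03 and 0.33. The endosomal receptors thus differed in both directions, and their sum (log2 ratio -0.09, -0.20 to 0.02) depended on which receptor was counted, being -1.73 without Tlr3 and 0.30 without Tlr13.

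In Ctx NPC against Ctx, 5 of 6 tested members were at least 2-fold lower and 0 were higher, against 17.9% lower and 20.1% higher of 12623 genes (38.0% in all). The median log2 ratio of all genes tested in this comparison was 0.19, and other scalings shifted this comparison by -0.17 to -0.18 on the log2 scale, with ratios of the lowest counts moving less. Tlr13 had 2 reads against 97 (log2 ratio -5.20, -8.57 to -3.61) and Tlr4 had 15 against 241 (log2 ratio -3.86, -4.77 to -3.16). Tlr3 had a log2 ratio of -2.38, Tlr2 of -1.79 and Tlr6 of -1.17. Tlr8 had 0 reads against 37, at least 11.5-fold lower when set against 3 reads. Tlr1 stood apart from the others with 186 against 223 reads (log2 ratio -0.16, -0.45 to 0.12). The cells of these libraries also differ in age of origin, which cannot be told apart from cell type.

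Microglial markers also differed between the libraries. Aif1, Cx3cr1, Tmem119 and P2ry12, members of the microglial marker list, had 46, 30, 212 and 6 reads in VM and 311, 128, 291 and 23 reads in VM C. They had 17, 14, 167 and 10 reads in VM NF, 9, 15, 83 and 5 in Ctx, and 4, 2, 5 and 5 in Ctx NPC, whereas the microglial gene Siglech had 0 reads in every library. The 24 listed markers with a row summed to 14397 reads in VM, 54132 in VM C, 10827 in VM NF, 7474 in Ctx and 3492 in Ctx NPC, where 2746 of the reads lay on Sall1. Of the tested markers, 17 of 20 were higher in VM C than in VM (median log2 ratio 1.98), against 7.30% of all genes. In VM NF, 18 of 20 were lower than in VM C (median -2.68), against 9.73% of all genes. In Ctx, 15 of 18 were lower than in VM (median -1.63), against 9.89% of all genes. In Ctx NPC, 15 of 16 were lower than in Ctx, with a median of -5.03, against 17.9% of all genes. The markers and receptors did not move alike throughout, since the surface receptors and Tlr3 were not lower in Ctx and Tlr5 was not higher in VM C. Their part in the receptor results was not tested, and in such bulk libraries fewer cells of a type and less RNA per cell cannot be told apart.

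Other marker lists moved as well. Listed macrophage markers from outside the parenchyma summed to 1210 reads in VM, 5102 in VM C, 716 in VM NF, 180 in Ctx and 5 in Ctx NPC, of which Cd5l made up 8, 1789, 5, 13 and 0, and oligodendrocyte markers to 9724, 18308, 7082, 12854 and 179081 reads. Of the tested oligodendrocyte markers, 6 of 8 were higher in VM C than in VM and 0 lower (median log2 ratio 1.98), against 7.30% and 8.48% of all genes. In VM NF against VM C, 7 of 8 were lower and 0 higher (median -2.91), against 9.73% and 9.53%. In these comparisons the median of the oligodendrocyte list thus shifted about as far as that of the microglial list. Its summed reads shifted less, with a log2 ratio of 0.83 against 1.83 for the microglial sum in VM C against VM. The sums gave -1.22 against -2.17 in VM NF against VM C. In Ctx NPC against Ctx, 9 of 9 oligodendrocyte markers were higher, against 20.1% of all genes, unlike the microglial list. Spi1, the gene of PU.1, had 226, 1711, 149, 37 and 4 reads, in the same order of libraries as Tlr13 and Tlr7. This order was not particular to Spi1, since Csf1r (527, 3199, 326, 170 and 7) and Ptprc (219, 1767, 169, 76 and 3) had it too. Of the receptors with the PU.1 core, Tlr13 had this order and Tlr8 and Tlr1 did not. Tlr9 had it too, but its 8, 7 and 6 reads in VM, VM NF and Ctx were not separated beyond counting error. Tlr8 had 79 reads in VM and 101 in VM NF, a log2 ratio whose interval (-0.02 to 0.86) held 0. Tlr1 had 176 reads in VM and 223 in Ctx. The part of these marker lists and of Spi1 in the receptor results was not tested either.

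Set beside the microglial list, receptors fell into different positions. In VM C against VM, Tlr2 (1.87) and Tlr4 (2.10) lay near the marker median of 1.98 on the log2 scale, whereas Tlr3, Tlr1 and Tlr6 lay at 0.91, 1.09 and 0.76. For Tlr7, Tlr8, Tlr9 and Tlr13, 1 of the 20 tested markers, Fcrls with 1 and 734 reads, had a ratio as large or larger. Per 1000 reads of the microglial list, Tlr13 had 26.7 reads in VM, 76.4 in VM C and 25.9 in VM NF, and Tlr7 had 9.93, 31.7 and 9.42. Tlr2 had 72.4, 74.5 and 63.7 reads on that scale and Tlr3 had 47.0, 25.0 and 44.1. Tlr13 and Tlr7 were thus higher in VM C also relative to the marker sum, Tlr2 was near level, and Tlr3 was lower.

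In Ctx the relation was different. Per 1000 reads of the microglial list, Ctx held 138 reads of Tlr3 and 138 of Tlr2, against 47.0 and 72.4 in VM. The scale depends on which markers are summed. Without Sall1, a choice made after its values were seen, Ctx held 202 reads of Tlr3 and 201 of Tlr2 per 1000, against 52.6 and 80.9 in VM. In the 3 VM libraries Tlr13 then had 29.9, 78.1 and 30.8 reads and Tlr3 had 52.6, 25.5 and 52.5, which kept their directions in VM C. Tlr2 then had 80.9, 76.1 and 76.0 reads and Tlr4 had 17.0, 18.7 and 21.6, so neither stayed highest in VM C.

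**Figure D4:**
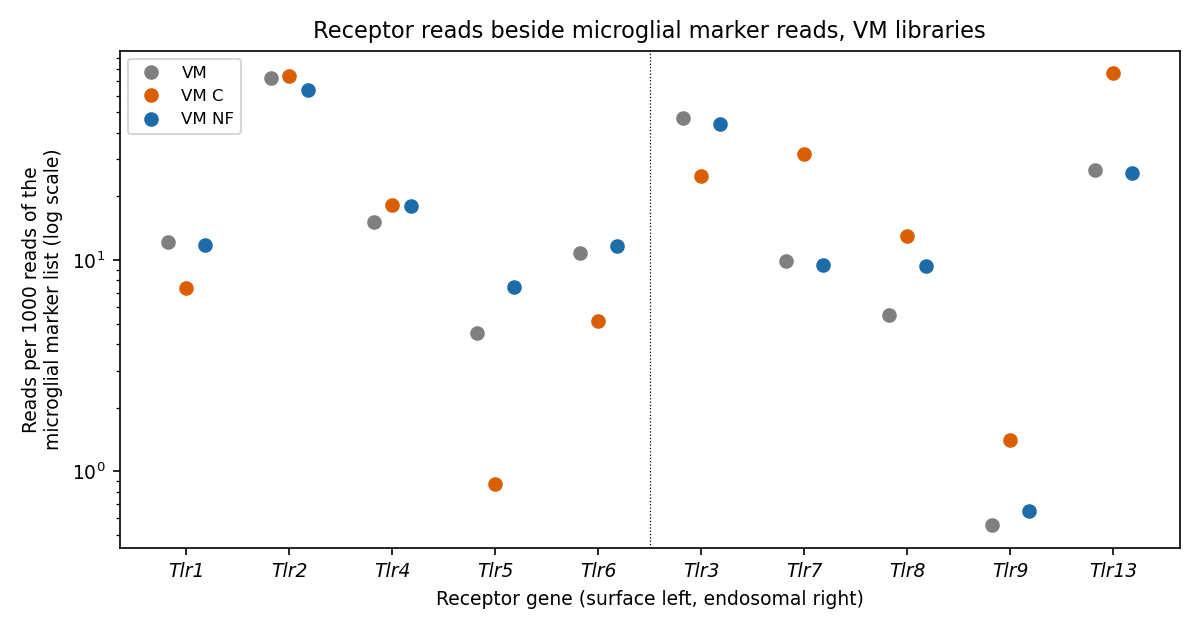
Reads of each receptor per 1000 reads of the microglial marker list in the 3 VM libraries, on a log axis, with surface receptors left and endosomal receptors right of the dotted line; each point is 1 library. Tlr7, Tlr8, Tlr9 and Tlr13 are highest in VM C on this scale, and Tlr1, Tlr3, Tlr5 and Tlr6 are lowest there. Tlr2 and Tlr4 are highest there by a small margin, which does not hold when Sall1 is left out of the list.

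The other genes of the pathway were followed in 6 lists of 67 genes, of which 66 had a row. In VM C against VM, 23 of the 63 tested genes were higher and 4 were lower, against 7.30% and 8.48% of all genes, and in VM NF against VM C 27 of 63 were lower and 5 were higher, against 9.73% and 9.53%. In VM NF against VM, 4 of 61 were lower and 0 were higher, against 0.668% and 0.322%. In Ctx against VM, 20 of 62 were lower and 0 higher, against 9.89% and 4.49%. In Ctx NPC against Ctx, 22 of 55 were lower and 5 higher, against 17.9% and 20.1%. The median log2 ratio of the tested genes was 0.30 in VM C against VM, where that of the tested receptors was 1.99.

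The accessory proteins that deliver ligands or receptors were the list nearest to the receptors, with a median log2 ratio of 1.85 in VM C against VM. Of these, 8 of 11 were higher in VM C and 1 was lower, against 7.30% and 8.48% of all genes. Cd14, which passes lipopolysaccharide to TLR4, had 2374, 9068, 1328, 596 and 1134 reads in VM, VM C, VM NF, Ctx and Ctx NPC. Ly96, the MD-2 partner of TLR4, had 32, 120, 37, 36 and 11 reads. Both were thus highest in VM C, but Lbp, the serum protein that binds lipopolysaccharide, was the lower one, with 5453 reads in VM, 2033 in VM C and 4684 in VM NF (VM C against VM log2 ratio -1.51). Lbp, like the Cyld gene given further on, was named after its values were seen. Unc93b1, the chaperone that brings the nucleic acid receptors to endosomes, had 1181, 3147, 901, 701 and 114 reads, a VM C against VM log2 ratio of 1.33 (1.23 to 1.43). Cd180, a receptor-like protein of B cells and myeloid cells, had the largest VM NF against VM C ratio of the list, with 31 against 602 reads (log2 ratio -4.11).

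The adaptors and kinases downstream stayed closer to level, with medians of 0.30 and 0.17 in VM C against VM. Myd88, the adaptor of nearly all members, had 680, 651, 569, 553 and 488 reads across the 5 libraries. Ticam1, the adaptor of TLR3, had 882, 707, 869, 878 and 426 reads. Scaled to library totals, neither passed 2-fold in any of the 5 comparisons, nor did Tirap, the bridging adaptor, or Irak4, the first kinase of the MYD88 complex. In Ctx NPC against Ctx, Ticam1 had a log2 ratio of -0.94 and passed 2-fold with the other scalings (-1.13 with TMM, -1.12 with DESeq2 size factors and -1.11 with upper-quartile scaling). Ticam2, the bridging adaptor of TLR4, was higher in VM C than in VM (330 against 53 reads, log2 ratio 2.55), and so was Pik3ap1 (839 against 70 reads, 3.49). Btk, a kinase of B cells and myeloid cells, had 444 against 43 reads (log2 ratio 3.27).

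Among the transcription factors, Irf8, a factor of the myeloid lineage, had 355, 1960, 326, 126 and 53 reads in VM, VM C, VM NF, Ctx and Ctx NPC. Irf5 was 2.06-fold higher in VM C than in VM and Irf7, the interferon factor used by TLR7 and TLR9, was 1.66-fold higher. Irf7 had 32 reads in Ctx NPC against 1896 in Ctx (log2 ratio -5.77). Of the negative regulators, Irak3, an inhibitor of the MYD88 complex, had 256, 1103, 209, 88 and 25 reads, and Dok3 had 50, 236, 35, 27 and 36. In VM C against VM, 2 of the 6 tested negative regulators were higher, namely these, against 7.30% of all genes. The other 4 were neither higher nor lower. Cyld, a deubiquitinase, had 2164 reads in VM, 1391 in VM C and 2791 in VM NF and was higher in VM NF than in VM C (log2 ratio 1.15).

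Genes that the receptors are known to induce did not move one way. In VM C against VM, 6 of 18 were higher and 3 lower, against 7.30% and 8.48% of all genes. In VM NF against VM C, 9 of 18 were lower and 3 higher, against 9.73% and 9.53% of all genes. Tnf had 65, 401, 30, 21 and 2 reads and Il6 had 416, 863, 253, 47 and 5 reads in VM, VM C, VM NF, Ctx and Ctx NPC. Il1b had 65, 82, 19, 1 and 1 reads, and its VM C against VM interval (-0.23 to 0.75 on the log2 scale) held 0. Tnf and Il6 were thus highest in VM C, but the chemokine gene Cxcl10 was lowest there, with 3789, 1054, 2217, 2819 and 2470 reads. Acod1, an enzyme of activated myeloid cells, had the largest VM NF against VM C ratio of this list (55 against 1378 reads, log2 ratio -4.49). Of the 18 tested genes, 4 were lower in VM NF than in VM, against 0.668% of all genes. In Ctx against VM, 12 of 18 were lower, against 9.89% of all genes.

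**Figure D5:**
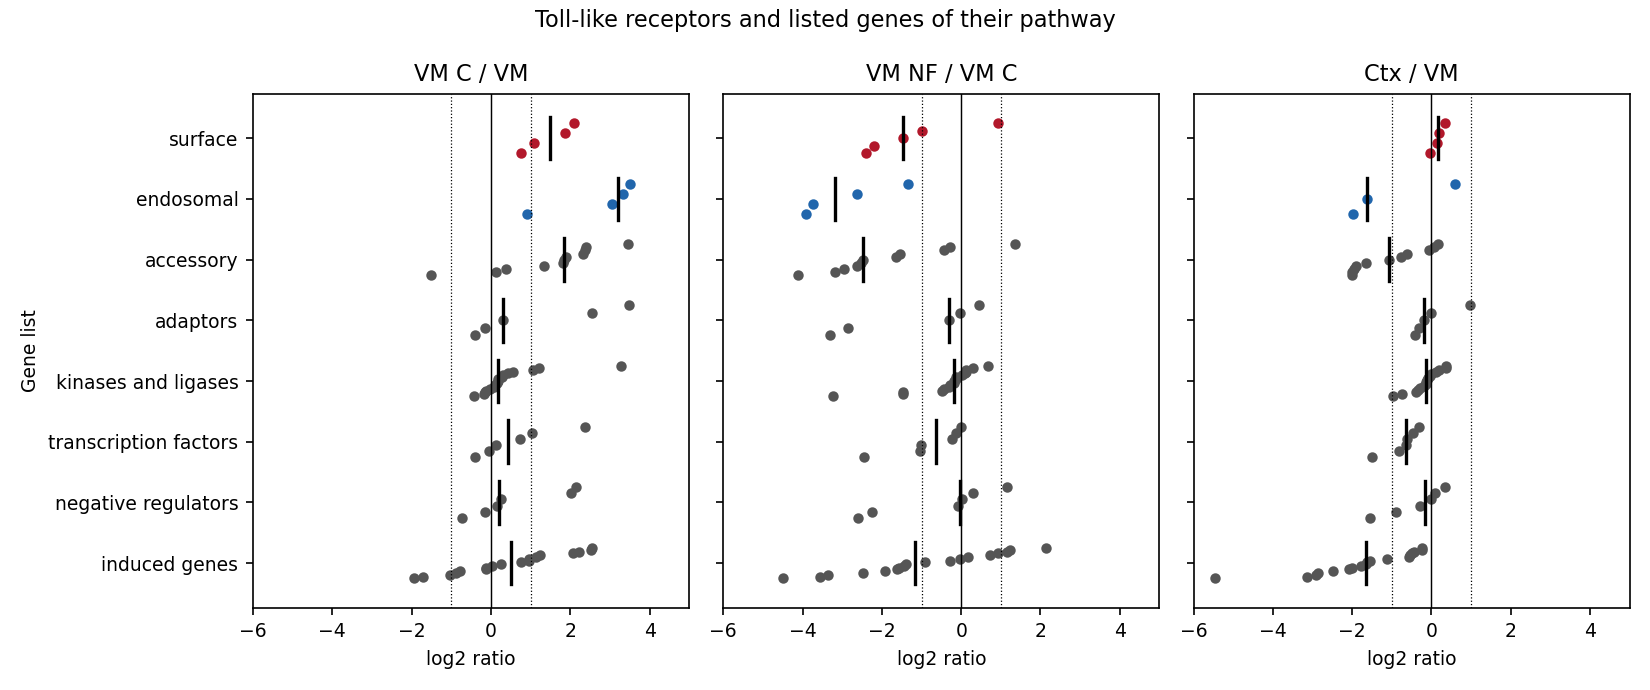
Log2 ratios of the tested receptors and of the tested genes of the 6 pathway lists in 3 comparisons; each point is a gene, black bars are medians and dotted lines mark 2-fold. In VM C against VM the accessory list (median 1.85) lies nearest to the receptors, and adaptors, kinases and ligases lie near 0 with a few genes far to the right.

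The span of a receptor over the 5 libraries, as the highest minus the lowest log2 scaled counts (CPM), was 1.48 for Tlr1, 1.73 for Tlr6, 2.20 for Tlr5, 2.69 for Tlr3 and 3.68 for Tlr2. It was 5.83 for Tlr4, 8.76 for Tlr7 and 10.52 for Tlr13, the last values resting on the low counts in Ctx NPC. Likeness of pattern was described by the root mean square difference in centred log2 CPM over the 5 libraries, among 13298 genes, and a smaller value is more alike. Between receptors, Tlr3 and Tlr6 were closest (0.41), followed by Tlr1 and Tlr6 (0.46), which share sequence, and Tlr8 and Tlr13 (0.48). Surface and endosomal receptors were therefore not fully separated by pattern, since Tlr3 lay with surface receptors. Tlr7, Tlr8 and Tlr13 lay nearer to each other (0.48 to 0.98) than to any surface receptor (1.14 or more).

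The genes most like Tlr13 were Blnk (0.15), Cd22 (0.16) and Fcgr1 (0.17), and those most like Tlr7 were Ly9 (0.11), Phf11b (0.17) and Fyb (0.20). Tlr8 was nearest to Il7r (0.24), the transcript NM_020008 (0.26) and Cd300a (0.28). Tlr6 was nearest to the transcript NM_001033416 (0.08), Calr3 (0.09) and Eno1 (0.11), the last a gene with a near-identical copy, whose reads are uncertain. Tlr2 was nearest to Gpr4 (0.20), Lif (0.26) and Ly96 (0.31), and Tlr3 to Olfml3 (0.16), Tifa (0.17) and Cmbl (0.18). Tlr4 was nearest to A630001G21Rik (0.09), Nppb (0.15) and Timp1 (0.16), Tlr5 to Mdm2 (0.06), Zc3h6 (0.06) and Dusp10 (0.09), and Tlr1 to Slc46a1 (0.11), Ccdc89 (0.13) and Slc23a2 (0.15). The values rest on 5 points that share libraries and depth. Tlr9, with 98 reads in all, was under the minimum of 100 reads, and no nearest genes were sought for it.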

How the data were processed

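The 5 deposited tables give, for each RefSeq transcript, a read count and an FPKM value. Per the study's methods the authors trimmed reads at a quality score of 20, aligned them with STAR and counted reads on exons of RefSeq annotation Release 105 with HTSeq-count; the methods name GRCm38 and the submitters' processing notes name mm9, and the notes also list bcl2fastq 1.8.4 and DESeq. The deposited FPKM values were recomputed from the deposited counts, lengths and totals and differed by a relative 4.09e-05 at most. A row holding each library's total was left out. Symbols were matched by RefSeq accession for 19997 of 20178 transcripts, and Lrrc33 was matched as Nrros. Coordinates and promoters come from RefSeq GRCm38.p6 and were not converted.

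Counts were scaled to library totals, 0.5 reads were added, and a gene was called at 2-fold or more if either library had an FPKM over 1. The call is a size, not a test. Of ratios and shares, exact Clopper-Pearson 95% intervals were computed, and of levels, exact Poisson intervals (Python 3.11.15, scipy 1.17.1). Alternatives were edgeR 4.0.16 TMM factors, DESeq2 1.42.0 size factors, upper-quartile scaling, 5 reads added, other filters on FPKM, a 3-fold line, class sums without their largest member, and medians. The scripts were tested on simulated data. Members, gene lists and marker lists were chosen with earlier results of these data known. Named pathway genes were a preset choice of 15, plus the gene with the largest VM NF against VM C ratio in each list; genes alike in pattern were the nearest 3 for each member with 100 reads or more. Il12b and Cd68 had no matching row. An alternative form of the microglial marker list is not reported here.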

Additional observations from a re-analysis of the deposited data

How the results depend on the processing

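No paired analysis was possible because each condition had 1 library, and for the same reason no library could be left out. No direction of a receptor past 2-fold changed: all 196 single-receptor values under the 3 other scalings and with 5 reads added stayed within their counting intervals. The class sums depended on their largest members. Without Tlr2, the surface log2 ratio was 1.40 in VM C against VM, -0.14 in VM NF against VM, -1.54 in VM NF against VM C, 0.19 in Ctx against VM and -1.18 in Ctx NPC against Ctx. As the median of the members, it was 1.09, -0.22 and -1.48 in the 3 VM comparisons and -1.79 in Ctx NPC against Ctx. The endosomal ratio without Tlr13 was 2.00 in VM C against VM, -2.33 in VM NF against VM C and 0.30 in Ctx against VM, and as the median it was 3.09, -3.21 and -1.09, and -3.64 in Ctx NPC against Ctx. In that last comparison the surface ratio was -1.69 with TMM, -1.69 with DESeq2 size factors and -1.67 with upper-quartile scaling. The surface share without Tlr2 was 32.2% in VM, 17.7% in VM C, 35.5% in VM NF, 36.7% in Ctx and 60.5% in Ctx NPC. As a share of summed FPKM it was 63.3%, 47.8%, 62.6%, 66.1% and 81.5% in that order, and with GENCODE transcript lengths, an alternative chosen after seeing the data, it was 62.5%, 47.3%, 61.7%, 65.7% and 80.8%. With FPKM above 1 asked of both libraries, 1 receptor was lower in Ctx than in VM and 3 were lower in Ctx NPC than in Ctx, and with no filter 9 were lower in Ctx NPC, since fewer or more receptors were tested. With TMM, 1 pathway gene was higher in Ctx than in VM and 3 were higher in Ctx NPC than in Ctx. Depth limits Tlr9 in every library and Tlr7, Tlr8 and Tlr13 in Ctx NPC, where they had 3 reads or fewer. The conflict between titles and treatment entries changes the sign of every VM NF against VM C value and exchanges the VM C and VM NF comparisons with VM.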
